A study of Saccharomyces cerevisiae with 4 samples.

Results

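This account covers the sulfur, methionine and one-carbon genes of Saccharomyces cerevisiae, a set of 36 genes that were taken from the array by matching each probe's gene names to a fixed list. The 36 genes lay on 41 probes, of an array with 6336 probes for 6250 genes, and none of the member probes named a further gene. All 36 names matched RefSeq. The 4 strains were TAT12, AT22, TTY23 and S288C. S288C was the parental laboratory strain, AT22 was evolved from it at low pH with acetic acid, TTY23 was evolved from it at supraoptimal temperature, and TAT12 was evolved from TTY23 under the acid conditions. All cultures shared a defined medium with 2% glucose at 30 °C, pH 5 and 250 rpm by the labels, without acetic acid, and RNA was taken in mid-exponential growth. The evolved strains are products of adaptive laboratory evolution, so that each carries the mutations of its own lineage, and differences between 2 strains are not tied to a single change in the genome.

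Each of 4 comparisons was hybridised on 2 arrays with the dyes swapped, namely AT22 over S288C, TAT12 over S288C, TAT12 over TTY23 and TAT12 over AT22. Both arrays of a swap hold the same pair of strains and were counted as 1 replicate, so no comparison has a biological replicate, and the number of arrays limits the precision. Every probe was printed as 2 spots on each array. A further comparison, TTY23 over S288C, was indirect and was formed by subtracting TAT12 over TTY23 from TAT12 over S288C on the log2 scale. Values are log2 ratios of the background-corrected and loess-normalised signals of both dyes, so that 0 means equal signal relative to the rest of the array. Total RNA per cell was not measured.

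Yeast takes up sulfate, activates and reduces it to sulfide, and joins the sulfide to a carbon chain made from aspartate to give homocysteine. Methionine synthase then methylates homocysteine with a methyl group carried by folate, which comes from serine through serine hydroxymethyltransferase and methylenetetrahydrofolate reductase. Methionine is turned into S-adenosylmethionine, the methyl donor of the cell, and the transsulfuration enzymes link homocysteine and cysteine. The activator Met4 with its DNA-binding partners drives most of these genes, and the ubiquitin ligase subunit Met30 holds it back when sulfur amino acids are plentiful.

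For each probe, a z-score set its log2 ratio against the mean and SD of the 100 probes nearest to it in mean intensity, and a probe was called past the threshold when the z-score was above 2 or below −2. The z-score describes how far a probe stands from others of similar brightness in the same pair of arrays, not a difference across replicates. Of the 36 genes, 5 passed the threshold in at least 1 comparison and 31 passed it in none. There were 8 calls in all at these settings, every one higher in the evolved or later strain, and all 8 had the same sign in both array values. For the 3 calls in the indirect TTY23 over S288C, each array value is a difference between arrays of different swaps. Those calls share the arrays of TAT12 over S288C and are not separate measurements.

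In TAT12 over S288C, 2 of 36 genes were called higher, MET6 and SHM2, and 0 lower, against 3.11% of all probes called higher and 1.94% called lower. In TAT12 over AT22 the same pair of genes was called higher and 0 lower, against 3.38% and 0.9% of all probes. In TAT12 over TTY23, 1 gene was called higher, MET4, and 0 lower, against 3.08% and 2.43%. In the indirect comparison of TTY23 over S288C, 3 genes were called higher, MET6, MET22 and SAM1, and 0 lower, against 3.0% and 2.16%. In AT22 over S288C, 0 of 36 genes were called in either direction, against 0.537% of probes called higher and 4.09% called lower. The genes called higher were 5.56%, 2.78%, 5.56% and 8.33% of the 36 in TAT12 over S288C, TAT12 over TTY23, TAT12 over AT22 and TTY23 over S288C. With so few calls per comparison these shares are coarse, and they were not tested against those over all probes. The set as a whole had median log2 ratios of 0.08, 0.06, 0.01, 0.00 and 0.04 in AT22 over S288C, TAT12 over S288C, TAT12 over TTY23, TAT12 over AT22 and TTY23 over S288C. In the same order, the medians over all probes were 0.03, 0.02, 0.01, −0.01 and 0.02.

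The AT22 over S288C values carry a further limit. The second array of that swap correlated at r = −0.586, over all probes, with the second array of TAT12 over S288C, which has S288C in the same dye, so its direction is not settled. With that array turned, 0 genes of the set were called higher and 1 lower, HOM2, against 1.2% of all probes called higher and 2.83% called lower, and the median of the 36 genes was −0.01. For AT22 over S288C, values are therefore given as labelled, with the turned mean beside the mean or arrays of each gene described, and ranges over the 5 comparisons are as labelled. TAT12 over AT22 does not use that array.

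**Figure D1:**
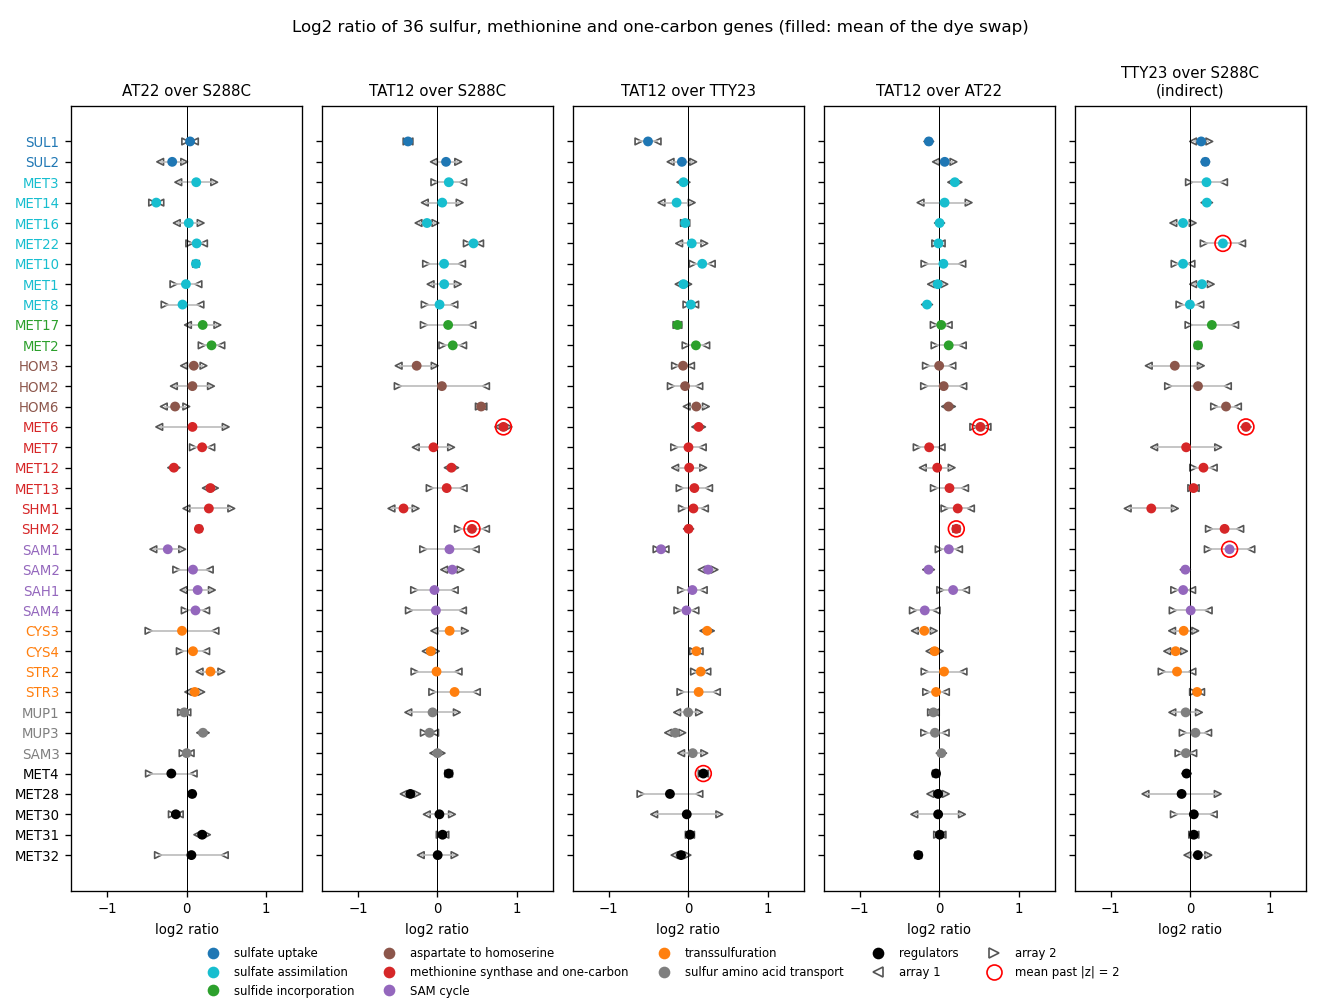
Log2 ratios (horizontal axes) of the 36 genes (rows, ordered and coloured by role) in the 4 hybridised comparisons and in the indirect TTY23 over S288C; filled points are means of the dye swap, open triangles are both arrays, and red rings mark means past the z-score threshold. Most genes lie within 0.5 of 0, and MET6 lies at 0.83, 0.52 and 0.70 in TAT12 over S288C, TAT12 over AT22 and TTY23 over S288C.

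MET6 (YER091C), which encodes the cobalamin-independent methionine synthase, was the member with the highest log2 ratio in TAT12 over S288C, TAT12 over AT22 and TTY23 over S288C. The comparison of TAT12 over S288C gave a MET6 normalised signal of 227.5 on array 1 and 526.6 on array 2 in TAT12, against 133.9 and 283.5 in S288C. The 4 spots gave log2 ratios of 0.75, 0.78, 0.95 and 0.84, with a mean of 0.83 ± 0.06 (distance of each array from the mean), a 1.78-fold higher signal in TAT12, and a z-score of 2.26. All 4 spots were above 0, and signal was above background in both strains on both arrays. The z-score was 2.10 on the second array alone and 1.78 on the first array alone, where the call is lost.

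In TAT12 over AT22, the MET6 signal was 173.8 and 189.0 in TAT12, against 114.2 and 140.6 in AT22. The 4 spots gave log2 ratios of 0.67, 0.54, 0.39 and 0.46, with a mean of 0.52 ± 0.09 (distance of each array from the mean) and a z-score of 3.45, the largest z-score of any member. TAT12 was higher on all 4 spots, by 1.43-fold in the mean. The first array alone kept the call, with a z-score of 2.47, and the second array alone did not, with 1.59.

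MET6 differed little between TAT12 and TTY23. Its signal was 248.6 and 214.5 in TAT12 and 234.2 and 190.4 in TTY23, and the 4 spots gave log2 ratios of 0.04, 0.13, 0.13 and 0.22, with a mean of 0.13 and a z-score of 0.70. The indirect value of TTY23 over S288C was accordingly 0.70, with 0.68 from array 1 and 0.72 from array 2, a z-score of 2.39 and a fold of 1.63. That call was lost on the first array alone, with a z-score of 1.66, and with median centring of each array in place of loess, where the log2 ratio was 0.48 and the z-score 1.97.

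In AT22 over S288C, the arrays of the swap went opposite ways for MET6. The signal was 156.9 and 140.8 in AT22 and 199.0 and 100.1 in S288C, which gave log2 ratios of −0.34 on the first array and 0.49 on the second. The mean was 0.07 as labelled, with a z-score of 0.31, and −0.42 with the second array turned, with a z-score of −1.72. The path from S288C through AT22 to TAT12 gave a MET6 log2 ratio of 0.59 as labelled and 0.10 with the array turned, beside 0.83 measured directly.

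**Figure D2:**
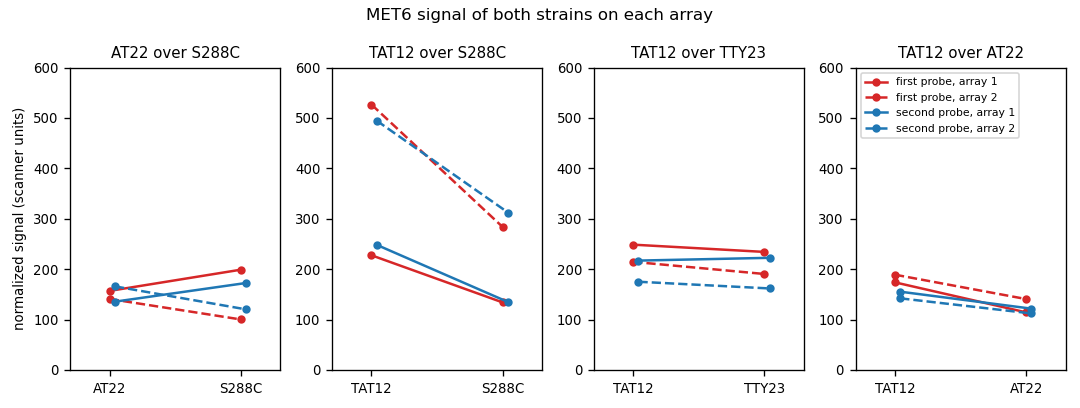
MET6 normalised signal in scanner units (vertical axes) of the strains named on the horizontal axes, for 2 probes on both arrays of each swap; each line joins both strains on 1 array. TAT12 is above S288C and above AT22 on every line, TAT12 and TTY23 lie close together, and the lines of AT22 and S288C cross.

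A second probe for MET6, 1 of 86 such probes on the array and 1 of 5 for the 36 genes, gave a separate reading; how its sequence differs from the first was not given in the sources used here. For TAT12 over S288C its spots gave log2 ratios of 0.85, 0.92, 0.62 and 0.70, with a mean of 0.77 and a z-score of 2.02. For TAT12 over AT22 they gave 0.35, 0.35, 0.26 and 0.43, with a mean of 0.35 and a z-score of 2.39. Both probes thus passed the threshold in both comparisons, and in TTY23 over S288C as well, where the second probe gave 0.73 and a z-score of 2.73. The indirect TTY23 over S288C reuses the arrays of TAT12 over S288C, so its MET6 call is not a separate measurement. In TAT12 over TTY23 the second probe gave 0.04, and in AT22 over S288C it gave −0.35 on array 1 and 0.47 on array 2 (0.06 in the mean, −0.41 turned), so that both probes showed the split between arrays.

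SHM2 (YLR058C), the cytosolic serine hydroxymethyltransferase that loads carbon from serine onto folate, was the other gene called in the direct comparisons of TAT12 with S288C and AT22. Its signal in the comparison with S288C was 148.7 and 201.2 in TAT12, against 97.4 and 168.4 in S288C, and the 4 spots gave log2 ratios of 0.59, 0.63, 0.33 and 0.19. The mean was 0.43, with a z-score of 2.06, and TAT12 was higher on all 4 spots, though the second array alone gave a z-score of 0.50, and the call was also lost without background correction (1.53), with a wider z-score window (1.82) and with the mean of both probes (1.44). The second SHM2 probe gave a mean of 0.23 and a z-score of 0.63, with arrays of 0.78 and −0.31 that had opposite signs.

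In TAT12 over AT22, SHM2 gave log2 ratios of 0.18, 0.25, 0.27 and 0.16 on its 4 spots, with a mean of 0.21 and a z-score of 2.001. Its signal was above background in 1 of 2 arrays in TAT12 and in 1 of 2 in AT22. Neither array alone passed the threshold, with z-scores of 0.96 and 1.02, and the second probe gave 0.23 with a z-score of 1.88. The call was also lost without background correction, with least squares over the loop and with a wider z-score window. It was lost as well with the mean of both probes and with the z-scores deposited by the authors. SHM2 did not differ beyond the spread of its spots in TAT12 over TTY23, where the mean was 0.00 and the spots ran between −0.04 and 0.03. In TTY23 over S288C it had an indirect log2 ratio of 0.43 and a z-score of 1.69, under the threshold.

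The remaining folate and methyl-group genes did not pass the threshold in any comparison. MET13, the main methylenetetrahydrofolate reductase, gave log2 ratios of 0.33 and −0.10 on the arrays of TAT12 over S288C, with a mean of 0.12 and a z-score of 0.32. In AT22 over S288C as labelled, all 4 MET13 spots were above 0, with a mean of 0.30 and a z-score of 1.36. With the second array turned the mean was −0.06. The MET13 mean was 0.07 in TAT12 over TTY23, 0.04 in TTY23 over S288C and 0.13 in TAT12 over AT22. It was not above background in either strain of TAT12 over AT22. MET12, the second isozyme of that reductase, gave 0.32, −0.06, 0.17 and 0.27 on its spots in TAT12 over S288C, with a mean of 0.18 and a z-score of 0.70. It gave a mean of 0.01 in TAT12 over TTY23, with arrays of −0.17 and 0.19, and in AT22 over S288C it was above background only in S288C. SHM1, the mitochondrial serine hydroxymethyltransferase, had the opposite sign to SHM2 in TAT12 over S288C. Its log2 ratios there were −0.60, −0.56, −0.23 and −0.32 on 4 spots, with a mean of −0.43 and a z-score of −0.86. The path from S288C through AT22 to TAT12 gave SHM1 0.51 as labelled and −0.05 with the AT22 array turned. In TAT12 over AT22 all 4 SHM1 spots were above 0, with a mean of 0.23, the same sign as SHM2. MET7, which adds glutamate to folates, had means between −0.13 and 0.20 over the 5 comparisons.

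SAM1 (YLR180W) and SAM2 encode the paired S-adenosylmethionine synthetases. SAM1 was lower in TAT12 than in TTY23 on every spot, with signals of 238.7 and 231.7 in TAT12 and 291.2 and 305.9 in TTY23. The 4 spots gave log2 ratios of −0.25, −0.32, −0.40 and −0.40, with a mean of −0.34 and a z-score of −1.06, which did not pass the threshold. The second SAM1 probe also gave 4 spots below 0, with a mean of −0.21. Against S288C, SAM1 in TAT12 gave 0.48 on the first array and −0.18 on the second, and its mean was 0.15. The second probe gave 0.87 and 0.02 there, with all 4 spots above 0, a mean of 0.44 and a z-score of 1.46.

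The indirect value of SAM1 in TTY23 over S288C was 0.49, with a z-score of 2.005, and the second probe gave 0.66 with a z-score of 2.42. Both values leaned on the first arrays, which gave 0.77 and 1.10 for the first and second probes, against 0.22 and 0.22 on the second arrays. Neither array alone passed for the first probe (z-scores of 1.85 and 0.57). The call was also lost without background correction, with median centring, with least squares over the loop and with a wider z-score window. It was lost as well with the mean of both probes.

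SAM2 ran the other way in TAT12 over TTY23, where its 4 spots gave log2 ratios of 0.14, 0.19, 0.33 and 0.33. The mean was 0.25 and the z-score 1.23, so neither synthetase passed the threshold, while SAM1 and SAM2 had opposite signs on all of their spots. In TAT12 over AT22 the SAM2 spots were all below 0, between −0.17 and −0.08, with a mean of −0.14, and in TAT12 over S288C they were all above 0, with a mean of 0.19. SAH1, which hydrolyses S-adenosylhomocysteine, and SAM4, which remakes methionine from homocysteine and S-adenosylmethionine, had means between −0.18 and 0.17 over the 5 comparisons.

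**Figure D3:**
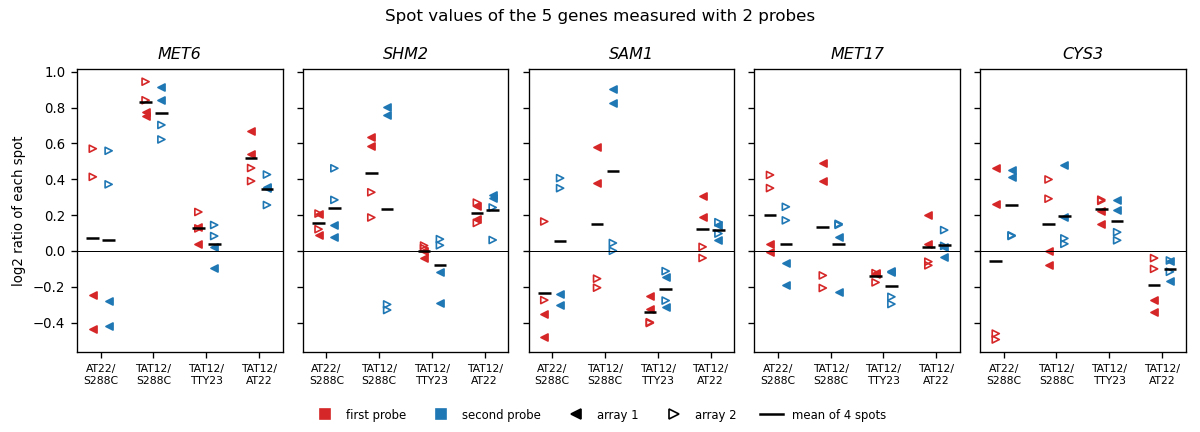
Log2 ratios (vertical axis) of every spot of the 5 genes with 2 probes, in the 4 hybridised comparisons (horizontal axes); colour marks the probe, filled and open triangles mark the first and second arrays, and black bars mark the mean of 4 spots. Both MET6 probes lie above 0 on all spots in TAT12 over S288C and TAT12 over AT22, both SAM1 probes lie below 0 on all spots in TAT12 over TTY23, and the second SHM2 probe and the first SAM1 probe lie on both sides of 0 in TAT12 over S288C.

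SUL1 and SUL2 encode the high-affinity sulfate permeases. SUL1 was lower in TAT12 than in TTY23 and S288C on every spot, without passing the threshold. In TAT12 over TTY23 its signal was 789.4 and 853.5 in TAT12, against 1032 and 1320 in TTY23. The spots gave log2 ratios of −0.37, −0.40, −0.60 and −0.65, with a mean of −0.51 and a z-score of −1.32, the lowest log2 ratio of the set in that comparison. For TAT12 over S288C the spots gave −0.36, −0.34, −0.33 and −0.45, with a mean of −0.37 and a z-score of −0.82. In TAT12 over AT22 the mean was −0.13, with all 4 spots below 0. SUL2 was not above background in any comparison of TAT12.

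The 7 genes of sulfate activation and reduction, MET3, MET14, MET16, MET22, MET10, MET1 and MET8, had group medians between −0.04 and 0.15 over the 5 comparisons. MET22 (YOL064C), the phosphatase that clears the nucleotide left by sulfate reduction, gave the highest of these values in TAT12 over S288C and in TTY23 over S288C. Its signal in TAT12 over S288C was 206.4 and 167.9 in TAT12, against 142.4 and 130.0 in S288C. The spots gave log2 ratios of 0.52, 0.56, 0.47 and 0.27, with a mean of 0.45 and a z-score of 1.53. The path from S288C through AT22 to TAT12 gave MET22 a log2 ratio of 0.12 as labelled and 0.08 with the AT22 array turned. Its indirect value in TTY23 over S288C was 0.41, with arrays of 0.65 and 0.17 and a z-score of 2.15, while S288C was above background on 1 of 2 arrays. That call was lost on the second array alone, where the z-score was 0.32, without background correction (1.29), with median centring (1.57), with least squares over the loop (1.73) and with a wider z-score window (1.79).

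MET14, the kinase that activates sulfate for reduction, had the lowest value of the set in AT22 over S288C, with signals of 117.8 and 195.1 in AT22 and 148.0 and 263.3 in S288C. Its 4 spots gave log2 ratios of −0.31, −0.35, −0.44 and −0.42, with a mean of −0.38 and a z-score of −1.37. With the second array turned the mean was 0.05. MET3, the ATP sulfurylase that begins the pathway, gave array values of 0.15 and 0.24 in TAT12 over AT22. Its arrays had opposite signs in AT22 over S288C and TAT12 over S288C. The MET3 mean in AT22 over S288C was 0.12 as labelled and −0.23 with the second array turned. MET16, MET10, MET1 and MET8, which encode the reductase of activated sulfate, a sulfite reductase subunit and the enzymes of its siroheme cofactor, had means between −0.15 and 0.17.

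MET17 joins sulfide to O-acetylhomoserine, and MET2 makes that acceptor. MET17 was lower in TAT12 than in TTY23 on all spots of both probes, by small amounts. Its log2 ratios were −0.13, −0.12, −0.18 and −0.12 on the first probe, with a mean of −0.14 and a z-score of −0.64, and the second probe gave −0.20. For TAT12 over S288C the first probe gave 0.44 on the first array and −0.17 on the second. MET2 had its highest mean, 0.31, in AT22 over S288C, with arrays of 0.44 and 0.19, and 0.12 with the array turned, neither past the threshold.

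Of the genes that turn aspartate into homoserine, HOM6, the homoserine dehydrogenase, had the highest log2 ratio in TAT12 over S288C and TTY23 over S288C. In AT22 over S288C as labelled its value was the lowest of these genes (−0.14). With the second array turned HOM2 was lower, and HOM6 stayed at −0.14. Its signal in TAT12 over S288C was 253.4 and 251.5 in TAT12, against 169.7 and 175.4 in S288C. The 4 spots gave log2 ratios of 0.66, 0.50, 0.54 and 0.50, with a mean of 0.55 ± 0.03 (distance of each array from the mean) and a z-score of 1.78. The path from S288C through AT22 to TAT12 gave HOM6 a log2 ratio of −0.03, both as labelled and with the AT22 array turned. SHM2 passed the threshold at a lower ratio, since the z-score is scaled by the spread of probes of similar brightness. In TTY23 over S288C HOM6 had an indirect value of 0.45 and a z-score of 1.38. HOM3, the aspartate kinase, gave −0.49 and −0.04 on the arrays of TAT12 over S288C.

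HOM2, the aspartic semialdehyde dehydrogenase, split strongly by array, with 0.61 and −0.50 in TAT12 over S288C. In AT22 over S288C it gave −0.16 and 0.31, a mean of 0.07 and a z-score of 0.16 as labelled, and with the second array turned a mean of −0.23 and a z-score of −2.41. HOM2 was not above background on every array in any comparison.

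The transsulfuration genes CYS3, CYS4, STR2 and STR3 all had means above 0 in TAT12 over TTY23, between 0.10 and 0.24, with none past the threshold. CYS3, the cystathionine gamma-lyase that releases cysteine, was the highest of them, with spots of 0.15, 0.22, 0.28 and 0.29 on the first probe and a second-probe mean of 0.17. All 8 CYS3 spots were above 0 in TAT12 over TTY23 and all 8 were below 0 in TAT12 over AT22, where the probes gave means of −0.19 and −0.10. CYS4, the cystathionine beta-synthase, had means between −0.18 and 0.10. STR2, which makes cystathionine from cysteine, gave 0.16 and 0.44 on the arrays of AT22 over S288C, with a mean of 0.30 as labelled and −0.14 with the second array turned. STR3, which cleaves it to homocysteine, gave spots of 0.53, 0.47, −0.07 and −0.06 in TAT12 over S288C, with a mean of 0.21 and a z-score of 0.80, so its arrays disagreed in sign.

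The methionine and S-adenosylmethionine permeases, MUP1, MUP3 and SAM3, had no mean beyond 0.21 in either direction. MUP1, the high-affinity methionine permease, gave means of −0.06, −0.00 and −0.07 in TAT12 over S288C, TAT12 over TTY23 and TAT12 over AT22. Its 4 spots were all below 0 only in TAT12 over AT22, between −0.16 and −0.02. MUP3, the low-affinity methionine permease, and SAM3, the S-adenosylmethionine permease, had means between −0.17 and 0.21 and were not above background on every array in any comparison.

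Among the regulators, only MET4 (YNL103W) was called, in TAT12 over TTY23, and its signal did not stand above background in either strain on either array. The signal was 69.4 and 72.4 in TAT12, against 60.0 and 64.5 in TTY23, and the z-score was 2.004. Because both strains were below background, no fold is given. The call was lost on either array alone, with z-scores of 1.00 and 1.40. MET28, a bZIP cofactor of Met4, gave spots of −0.19, −0.66, −0.02 and −0.49 in TAT12 over S288C, with a mean of −0.34 and a z-score of −1.18. MET32, a zinc finger partner of Met4, gave −0.26 on both arrays of TAT12 over AT22, with a z-score of −1.05. MET30 gave −0.43 and 0.39 on the arrays of TAT12 over TTY23, with a mean of −0.02. MET31, the paralog of MET32, had means between 0.01 and 0.20.

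A further 41 genes of the pathway, covering sulfite reductase, glutathione, methionine salvage, uptake of other sulfur compounds, folate with glycine cleavage and the threonine branch, were examined beside the 36. In TTY23 over S288C, 5 of 41 (12.2%) were called higher, against 3.0% of all probes, and 0 lower, against 2.16%. In TAT12 over S288C, 2 (4.88%) were called higher, against 3.11%, and 0 lower, against 1.94%. In TAT12 over TTY23, 1 (2.44%) was called higher, against 3.08%, and 0 lower, against 2.43%, and in TAT12 over AT22 none was called, against 3.38% higher and 0.9% lower. In AT22 over S288C, 0 were called higher, against 0.537%, and 3 (7.32%) lower, against 4.09%, or 0 and 1 (2.44%) with the second array turned, against 1.2% and 2.83%. The called genes, named after their values were seen, were MET5, MEU1, JLP1, DFR1 and THR4 in TTY23 over S288C, MET5 and JLP1 in TAT12 over S288C, ARO8 in TAT12 over TTY23, and, as labelled only, DUG2, JLP1 and THR1 in AT22 over S288C. Of these calls, only DFR1, ARO8 and, in AT22 over S288C, JLP1 and THR1 were above background in both strains on every array. That held for 8 of the 41 genes (19.5%) in TAT12 over S288C, against 41.2% of all probes. The same number held in TTY23 over S288C, against 40.3%.

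MET5, which encodes the beta subunit of sulfite reductase, had a log2 ratio of 0.45 in TAT12 over S288C, with arrays of 0.10 and 0.80 and a z-score of 2.004, and 0.42 in TTY23 over S288C, with arrays of 0.55 and 0.30. JLP1, a dioxygenase that releases sulfite from sulfonates, had 0.85 in TAT12 over S288C, with arrays of 0.17 and 1.53 and a z-score of 3.15. In AT22 over S288C it had −0.84 as labelled, with arrays of −0.34 and −1.34, and 0.50 with a z-score of 1.79 once the second array was turned. Both genes share the S288C arrays between TAT12 over S288C and the indirect TTY23 over S288C, so those calls are not separate measurements. ARO8, an aromatic aminotransferase that also serves methionine salvage, gave 0.31 and 0.34 on the arrays of TAT12 over TTY23, with a mean of 0.32 and a z-score of 2.74. Among the genes called only in the indirect TTY23 over S288C, DFR1, the dihydrofolate reductase, gave 1.13 and 0.30 on the arrays, MEU1, the methylthioadenosine phosphorylase of methionine salvage, gave 0.33 and 0.78, and THR4, the threonine synthase, gave −0.15 and 1.48. DUG2, a subunit of a glutathione-degrading complex, gave −0.45 and −0.96 in AT22 over S288C as labelled, and a turned mean of 0.25 with a z-score of 1.81. THR1, the homoserine kinase of the threonine branch, gave −0.73 and −0.92 in AT22 over S288C as labelled, with a z-score of −3.19, and a turned mean of 0.10 with a z-score of 0.34. None of these 3 genes was called with the array turned, where MIS1, a mitochondrial folate enzyme, was the single call, at −0.42 with a z-score of −2.22, against −0.04 as labelled.

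For the whole array and for the 36 genes alike, the arrays of a swap shared a sign about as often as not. The same sign on both arrays was found for 18, 16, 16 and 15 of 36 genes in AT22 over S288C, TAT12 over S288C, TAT12 over TTY23 and TAT12 over AT22, against 52.9%, 50.2%, 50.0% and 42.1% of all probes. All 4 spots shared a sign for 33.3%, 30.6%, 36.1% and 30.6% of the genes, against 39.4%, 32.7%, 36.5% and 27.5% of all probes. The correlation between both arrays over all probes ran between −0.174, in TAT12 over AT22, and 0.125, in TAT12 over TTY23. Duplicate spots on 1 array correlated at 0.79 to 0.937. Of the 36 genes, 14 were above background in both strains on every array and 9 were not so in any comparison. MET6 was among the 14, SHM2, SAM1 and MET22 were above background on some arrays, and MET4 was among the 9.

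**Figure D4:**
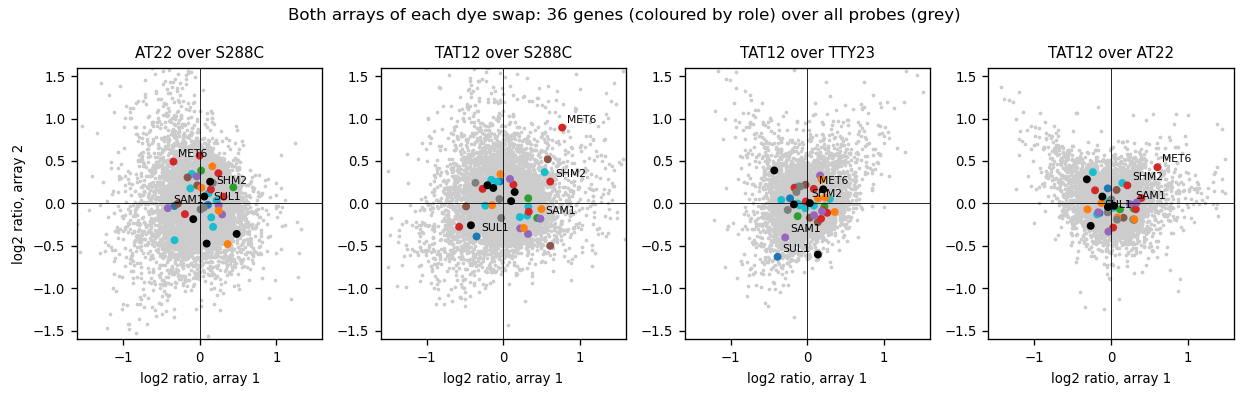
Log2 ratio on the second array (vertical axes) against the first array (horizontal axes) for the 36 genes, coloured by role, over all probes in grey; 16, 62, 11 and 2 probes fall outside the axes in AT22 over S288C, TAT12 over S288C, TAT12 over TTY23 and TAT12 over AT22. MET6 lies in the upper right, high on both arrays, in TAT12 over S288C and TAT12 over AT22, and SUL1 lies in the lower left in TAT12 over TTY23.

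A limma fit over the loop of 4 strains, which treats each dye swap as 1 value and leaves 1 residual degree of freedom, called 0 of the 36 genes at a Benjamini-Hochberg adjusted p of 0.05 in any comparison. Over all probes it also called 0, with 27 to 253 probes at an unadjusted p under 0.05, and the unadjusted p was under 0.05 for 2 of 36 genes in TAT12 over S288C, 1 in TAT12 over AT22 and 0 in the other 3 comparisons. For MET6 this fit gave a log2 ratio of 0.75 (SE 0.17, adjusted p = 0.9998) in TAT12 over S288C and 0.60 (SE 0.17, adjusted p = 0.9996) in TAT12 over AT22. After turning the AT22 array described above, the limma values of MET6 were 0.59 (SE 0.18, adjusted p = 0.299) and 0.76 (SE 0.18, adjusted p = 0.320), and with all 8 arrays and a dye term they were 0.75 (SE 0.15, adjusted p = 0.388) and 0.60 (SE 0.15, adjusted p = 0.985). The fit with all 8 arrays counts both arrays of a swap as separate values although they are not biological replicates, so its SE understates the spread. Neither alternative called any of the 36 genes. The loop closed to a median absolute difference of 0.235 over the 36 genes as labelled and 0.114 with the array turned, between the direct TAT12 over S288C and the path through AT22, against 0.279 and 0.186 over all probes.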

How the data were processed

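Per the labels, total RNA was labelled with Alexa555 or Alexa647 and hybridised to slides of 50-mer oligonucleotides; the deposited scanner files hold spot and background intensity of both dyes. The deposited series table holds a z-score for each probe, a score that the authors computed with genArise. The authors' own comparison tables from that program, with ratios and z-scores, were not used. Intensities were background-corrected (limma 3.58.1 in R 4.3.3, normexp, offset 50) and loess-normalised, with empty and control spots at weight 0. Log2 ratios, computed here from the deposited intensities, were averaged over duplicate spots and both arrays, turned to the evolved or later strain. Above background means a mean net signal past the 95th percentile of empty spots. Genes with 2 probes were read from the probe with the plain identifier. Genes picked for fuller description were those past the threshold, those the study names, and, in role groups with none of these, the gene with the highest mean intensity. Other genes given with array or spot values, among them MET14, MET28, MET32, SHM1, HOM2 and CYS3, were added after their values were seen. The members and lists were chosen with earlier results of these data known. The study's labels and methods give slightly different pH and agitation. Whether extracts were shared between arrays was not given in the sources used here. Adjusted p-values come from limma over all probes. Scripts were tested on simulated data.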

Additional observations from a re-analysis of the deposited data

How the results depend on the processing

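No paired analysis was possible because each comparison holds 1 replicate. Main counts of called genes were 0 in AT22 over S288C, 2 in TAT12 over S288C, 1 in TAT12 over TTY23, 2 in TAT12 over AT22 and 3 in TTY23 over S288C. For AT22 over S288C, turning the second array gave 1. For TAT12 over S288C, the count was 1 without background correction, on the second array alone, with a window of 300 probes, with a fold change of at least 1.5 and with the mean of both probes, and 4 with a z-score threshold of 1.5. For TAT12 over TTY23, it was 0 without background correction, with only genes above background, on the first array alone, with the fold change and with the authors' z-scores. For TAT12 over AT22, it was 1 with only genes above background, on the first array alone (MET6, higher), on the second array alone (SAM4, lower), with least squares over the loop, with 300 probes and with the mean of both probes, and 0 with the fold change. For TTY23 over S288C, it was 0 with median centring and 1 without background correction, on the second array alone, with 300 probes and with the fold change. Lower calls appeared only under alternatives: SAM4 in TAT12 over AT22 also without background correction and with the authors' z-scores, MET28 in TAT12 over TTY23 on the second array alone (there the 1 call), MET4 in TTY23 over S288C with least squares, and HOM2 with the AT22 array turned. The other 50 values stayed within 1.5 times the main counts, but some of them could not have moved or are another quantity. They include the limma counts of 0, the setting of probes that name 1 gene, and the turned setting in comparisons without that array. A count that stayed could also hold other genes. In TTY23 over S288C, least squares called MET6, SHM2 and MET4 (lower), and the mean of both probes called MET6, MET22 and SHM2. In TAT12 over S288C, the first array alone called HOM2, SHM2 and STR3, without MET6. In TAT12 over AT22, the authors' z-scores called MET6 and SAM4 (lower), without SHM2. No single-gene log2 ratio that was called changed sign under any of these settings. The mean of both probes was chosen after seeing the data. Restricting the set to probes that name 1 gene changed no count, as none of the member probes named a further gene. The cause of these moves was not tested, except that requiring signal above background leaves fewer genes, 22, 20, 27, 16 and 20 in the order above. Dim signal, with Alexa647 at 1.223 to 3.094 times its background, limits the 9 genes that were in no comparison above background in both strains on both arrays.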
